A study of Mus musculus with 18 samples.

Results

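TM5614 and TM5441 are code names of small molecules known as inhibitors of plasminogen activator inhibitor 1 (PAI-1), and their values in mouse liver are set side by side here. The genes described are the 8563 of 12019 genes in the table whose mean over its 5 group columns was at least 50 normalized counts. The means nearest that limit were 50.0007 inside it and 49.983 outside it. TM5614 is given as the log2 ratio of its group mean to the control mean, so that a value of 1 is a doubling. TM5441 is given as the log2 fold change of the authors' deposited table, the single value per gene used here for that compound.

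The study used C57BL/6J mice, of a sex that the labels leave unstated, over 8 weeks from 21 weeks of age, and then sequenced poly(A)-selected RNA of whole minced liver. The control mice ate ad libitum and are represented by 6 libraries. Of the 3 groups given compounds in chow, TM5614 was at 20 mg/kg/day, rapamycin, an inhibitor of the kinase mTOR, at 42 mg/kg/day and metformin, a drug that lowers blood glucose, at 37.5 mg/kg/day, each with 3 libraries. A group on 30% caloric restriction also had 3 libraries. The design text names 30 mice while its groups add up to 18, and 18 libraries are labelled. No library is labelled TM5441, and the sources used here give neither its dose nor its duration or number of animals. The libraries carry separate labels, but whether each is 1 mouse, the time of day of collection and which libraries stand behind the control mean are likewise not stated. Doses and times are therefore not known to match, so the values of the compounds stand side by side, and no difference between them was tested or given an interval.

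PAI-1 is a secreted serpin that traps the plasminogen activators tPA and uPA and so holds back the conversion of plasminogen to plasmin, the protease that dissolves fibrin. It is made by liver cells, endothelium and fat, it is induced by inflammation, TGF-beta and the circadian clock, and it is released by senescent cells.

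Most genes were near the control level under both compounds. The median log2 value over the 8563 genes was -0.01 for TM5614 and -0.01 for TM5441 of the authors' deposited table. The middle 90% of genes lay between -0.49 and 0.54 for TM5614, and between -0.40 and 0.42 for TM5441 of the authors' deposited table. An adjusted p under 0.05 in the authors' deposited table, here the meaning of "called", was reached for TM5614 by 199 genes that rose (2.33% of the 8550 genes with an adjusted p) and by 193 that fell (2.26%). Past 1 log2 unit, a size with no test, TM5614 had 77 higher genes (0.899%) and 82 lower genes (0.958%). By the same size, TM5441 had 59 higher genes (0.689%) and 32 lower genes (0.374%) in the authors' deposited table. Against the mean of rapamycin and metformin, a reference without the control, TM5614 had 18 higher and 59 lower genes by that size. The counts for the 2 compounds are not a test of which compound moved more genes, since the spread behind either set of values is unknown.

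**Figure D1:**
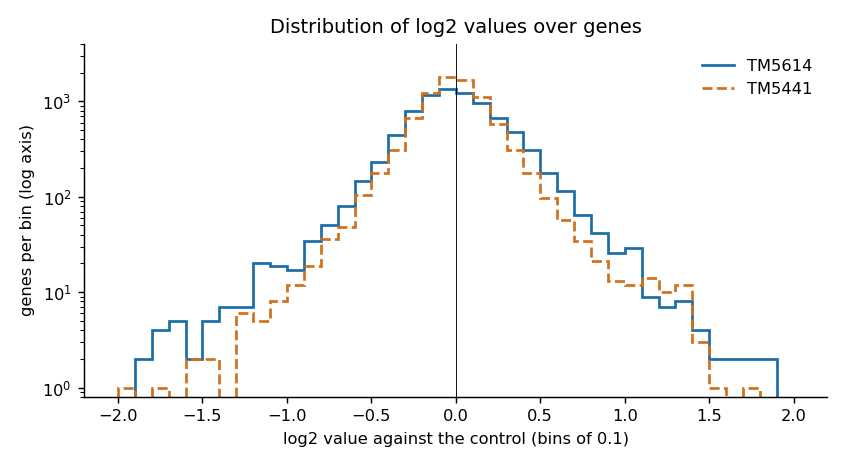
Number of genes (vertical log axis) in bins of 0.1 of the log2 value against the control (horizontal axis) for TM5614 (solid) and TM5441 (dashed). Both peak near 0, and 11 genes below -2 and 12 above 2 for TM5614, and 7 and 6 for TM5441, lie outside the plotted range.

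Both sets of values appear to rest on 1 control. Among genes below the mean limit, 15 were listed at 0 under TM5614 with a control mean of at least 5, and for 14 of them the TM5441 value of the authors' deposited table was within 0.1 of the deposited TM5614 value. A control mean that is high or low by chance thus enters both columns in the same direction. For that reason no correlation or overlap is given, and values of both compounds on the same side of 0 are a description of the table and not a result. The called genes were also chosen on TM5614, so smaller TM5441 values among them show no difference between the compounds. Among the 199 that rose the medians were 0.75 for TM5614 and 0.42 for TM5441 in the authors' deposited table, and among the 193 that fell they were -0.64 and -0.28 in the authors' deposited table.

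Genes of the fibrinolytic system were mostly close to the control. Of 15 listed genes, 13 were in the table and 10 passed the mean limit, and none of the 10 was called. Their medians were -0.13 for TM5614 and -0.08 for TM5441 in the authors' deposited table. Serpine2, a serpin that inhibits thrombin and plasminogen activators, had the highest TM5614 value, 0.59, and its TM5441 value in the authors' deposited table was 0.54. Plg, the plasmin precursor, had a control mean of 21529 and a TM5614 mean of 19684, with log2 values of -0.13 and, for TM5441 in the authors' deposited table, -0.15. Serpinf2, the main inhibitor of plasmin, had -0.23 and, for TM5441 in the authors' deposited table, -0.09. Vtn, the plasma adhesion protein vitronectin, had -0.14 and, for TM5441 in the authors' deposited table, -0.06. For the cell-surface plasminogen receptor subunits Anxa2 and S100a10 the TM5614 values were -0.16 and -0.56, beside 0.45 and 0.07 for TM5441 in the authors' deposited table. The protease genes Plat (tPA) and Plau (uPA) and the receptor gene Plaur lay below the limit, with control means of 10.2, 16.8 and 13.7. Of 19 coagulation factors and inhibitors none was called. Among them the fibrinogen chains Fgb and Fga were the highest under TM5614, at 0.55 and 0.51 with adjusted p of 0.0587 and 0.0829 in the authors' deposited table, and had 0.43 and 0.34 for TM5441.

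**Figure D2:**
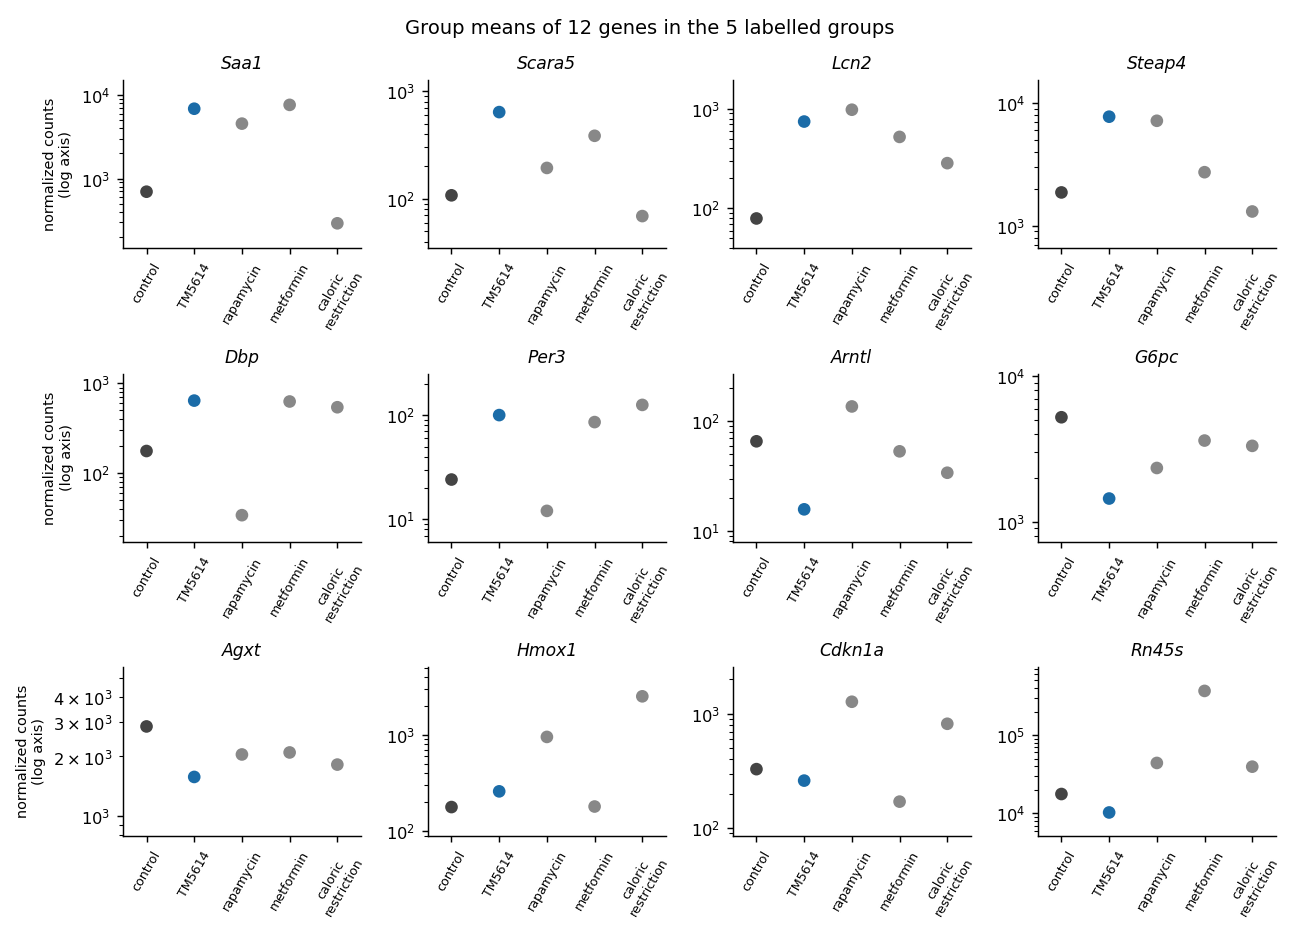
The authors' group means in normalized counts (vertical log axis) of 12 genes in the 5 labelled groups (horizontal axis), with no error bars because values of single libraries were not used. Saa1 is high under TM5614, rapamycin and metformin, and Rn45s reaches 366479 under metformin; TM5441 has no group mean.

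Acute phase genes, many of which encode products that hepatocytes secrete during inflammation, held the largest rises. Of 25 members past the mean limit (27 listed), 5 rose under TM5614 and none fell, against 2.33% and 2.26% of all genes. The list's median was 0.53 for TM5614 and 0.30 for TM5441 in the authors' deposited table, beside -0.01 over all genes for both. Values were above 0 for 24 of the 25 under TM5614 and for 18 under TM5441 in the authors' deposited table. Neutrophil, T and NK cell and B cell marker lists had no gene past the mean limit, and their summed levels were 72.8, 9.12 and 39.1 normalized counts under TM5614, beside 108, 5.96 and 23.2 in controls.

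Saa1 and Saa2 encode serum amyloid A, the apolipoproteins of acute phase high-density lipoprotein, and lie together on chromosome 7 (46740497 to 46742980 and 46751790 to 46754313, mm10). The Saa2 means were 450.4 in controls, 5777 under TM5614, 3898 under rapamycin, 5437 under metformin and 159 under caloric restriction. Saa2 rose by 3.68 (12.8-fold) with an adjusted p of 0.0129 in the authors' deposited table, where its TM5441 value was 2.48 (5.58-fold). Saa1 had means of 696 in controls, 6855 under TM5614, 4545 under rapamycin, 7622 under metformin and 291 under caloric restriction. Its rise was 3.30 (9.86-fold) with an adjusted p of 0.00396, and its TM5441 value 2.29, in the authors' deposited table. All groups given a compound were thus high for both genes, and the control and restricted groups were low. Against the mean of rapamycin and metformin the TM5614 values were 0.31 for Saa2 and 0.17 for Saa1. Reads of these near-identical genes may be split between them by the counting, which is not described.

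Lcn2, lipocalin 2, which binds bacterial iron carriers, had means of 79.3 in controls, 746 under TM5614, 981 under rapamycin, 523 under metformin and 285 under caloric restriction. It rose by 3.23 with an adjusted p of 0.0447, and its TM5441 value was 2.33, in the authors' deposited table. Every other group was above the control, and the TM5614 value of Lcn2 against the mean of rapamycin and metformin was -0.01. Saa4, the constitutive serum amyloid, rose by 1.35 with an adjusted p of 0.00368, beside a TM5441 value of 0.61, in the authors' deposited table. Members not called included Serpina3n, a protease inhibitor, with 1.38 and, for TM5441 in the authors' deposited table, 1.10. The metal-binding Mt1 and Mt2 had 1.07 and 1.20 under TM5614, and 1.15 and 1.31 for TM5441 in the authors' deposited table. Orm2, an orosomucoid, had opposite signs, 1.02 under TM5614 and -0.29 for TM5441 in the authors' deposited table. With a control-free reference, the mean of rapamycin and metformin, the list's TM5614 median was 0.12.

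Steap4, a metalloreductase that takes part in iron and copper uptake, rose as well. Its means were 1873 in controls, 7752 under TM5614, 7179 under rapamycin, 2737 under metformin and 1309.9 under caloric restriction. It rose by 2.05 with an adjusted p of 0.00322, and its TM5441 value was 0.97, in the authors' deposited table. Of the 5 acute phase genes that rose, Steap4 was the one whose upstream window held an NF-kB motif. The window of 250 bases before its start in RefSeq (GRCm38.p6, chr5:7960222-7960471, plus strand) is shown with the match in capitals; its last 15 bases overlap the annotated gene.
Steap4: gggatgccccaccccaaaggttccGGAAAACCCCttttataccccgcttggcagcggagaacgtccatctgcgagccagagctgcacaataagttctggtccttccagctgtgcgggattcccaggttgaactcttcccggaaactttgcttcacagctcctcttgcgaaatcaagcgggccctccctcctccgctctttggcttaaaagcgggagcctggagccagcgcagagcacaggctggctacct
The motif searched was GGG, any 2 bases and then TTTCC, on both strands, and 1.41% of 32851 such windows hold it. The windows of Saa1, Saa2, Saa4 and Lcn2 hold no match, which says only that these letters are not in those windows.

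Other large rises under TM5614 were in genes outside that list. C4a, a complement C4 gene with a near-identical neighbour, rose from 191 to 1186, by 2.63 with an adjusted p of 0.000121, and its TM5441 value was 1.22, in the authors' deposited table. Scara5, a scavenger receptor that takes up ferritin, rose from 108 to 640.3, by 2.57 with an adjusted p of 0.00244, beside a TM5441 value of 1.78 in the authors' deposited table. B3galt1, a galactosyltransferase, rose from 165 to 834, by 2.33 with an adjusted p of 0.000649, beside 1.39 for TM5441 in the authors' deposited table. The means of these 3 genes were lower under rapamycin (177, 194 and 224), metformin (539, 386 and 411) and caloric restriction (134, 69.1 and 76.0) than under TM5614. Against the mean of rapamycin and metformin, C4a had 1.73, Scara5 1.14 and B3galt1 1.39 under TM5614. Il1r1, the signalling receptor for interleukin 1, rose from 463 to 1883, by 2.02 with an adjusted p of 0.00287, beside 1.35 for TM5441 in the authors' deposited table.

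Further called genes were named because both of their values were past 1 log2 unit, a choice made on the values given. Map3k6, a stress kinase gene, had 1.62 and, for TM5441 in the authors' deposited table, 1.32. Ppl, the desmosome-linked protein periplakin, had 1.49 and, for TM5441 in the authors' deposited table, 1.15. Tacc2 had 1.45 beside 1.43, Ung, a DNA repair glycosylase, 1.29 beside 1.23, and Lrrc16a 1.21 beside 1.20, the second value of each pair being TM5441 in the authors' deposited table. Synpo, an actin-binding protein gene, had 1.04 and, for TM5441 in the authors' deposited table, 1.14. For Synpo and for the lipid droplet gene Plin4, described below with fat markers, the TM5441 number was the larger of the pair in the authors' deposited table.

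**Figure D3:**
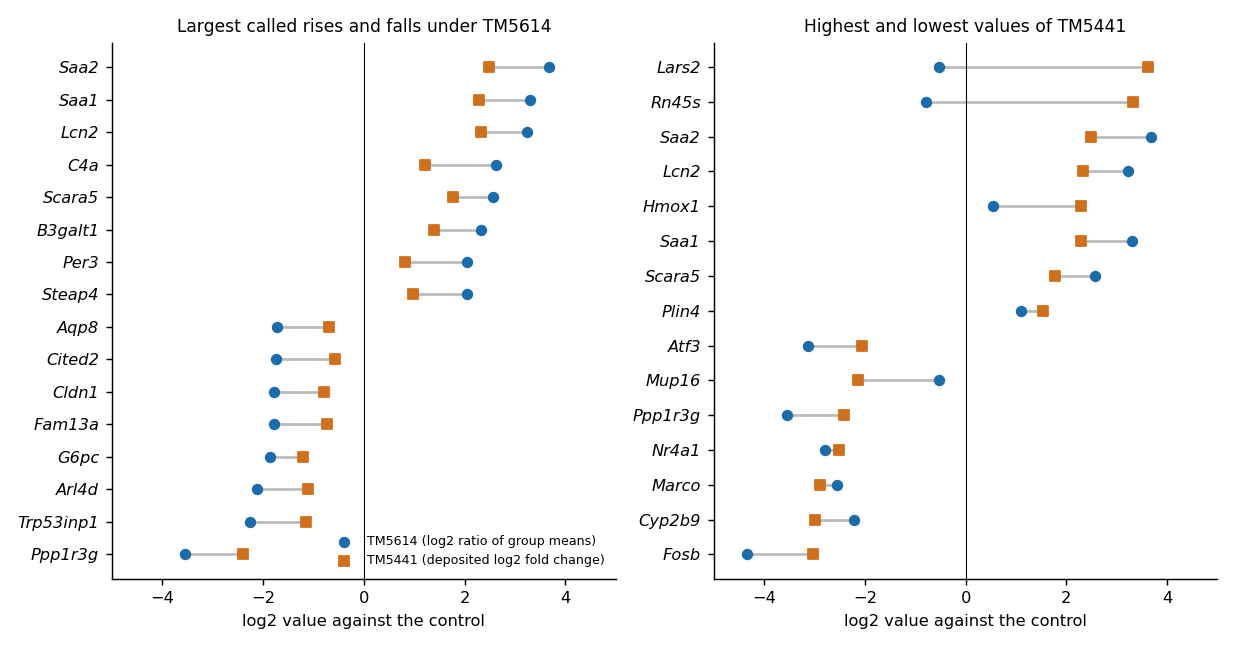
Log2 values against the control (horizontal axis) of TM5614 (circles) and TM5441 (squares), for the genes with the 8 largest rises and 8 largest falls called under TM5614 (left) and the highest and lowest TM5441 values (right), among genes reported here. On the left all pairs lie on the same side of 0, which the shared control and the choice on TM5614 favour; on the right Lars2 and Rn45s lie on opposite sides, at -0.53 and -0.78 for TM5614 and 3.63 and 3.33 for TM5441.

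The largest falls under TM5614 included genes of glucose handling. Ppp1r3g, which directs a phosphatase to glycogen after feeding, fell from 381 to 32.4, with 90.5 under rapamycin, 29.9 under metformin and 780.2 under caloric restriction. Its value was -3.55 with an adjusted p of 0.025, and -2.41 for TM5441, in the authors' deposited table. G6pc, the glucose 6-phosphatase that releases glucose from the liver, fell from 5224 to 1439.5, while rapamycin had 2337, metformin 3609.8 and caloric restriction 3318. Its value was -1.86 with an adjusted p of 0.00161, and -1.22 for TM5441, in the authors' deposited table. TM5614 had the lowest G6pc mean of the 5 groups, and against the mean of rapamycin and metformin its G6pc value was -1.05 and its Ppp1r3g value -0.89. Of 20 gluconeogenesis and glucose control genes, G6pc was the one that fell and none rose, against 2.26% and 2.33% of all genes. The medians were -0.17 and, for TM5441 in the authors' deposited table, -0.20. Igfbp1, which binds insulin-like growth factors, had -1.87 with an adjusted p of 0.222, and -1.30 for TM5441, in the authors' deposited table. Irs2, an insulin receptor substrate, had -0.40 under TM5614 and -1.26 for TM5441 in the authors' deposited table, and Pck1, which catalyses an early step of gluconeogenesis, had -0.32 and -0.57.

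Trp53inp1, a p53-induced gene, fell from 3757 to 789, with 2576 under rapamycin, 883 under metformin and 4824 under caloric restriction. Its value was -2.25 with an adjusted p of 0.0179, and -1.15 for TM5441, in the authors' deposited table. Arl4d, a small GTPase gene, fell by 2.13 with an adjusted p of 0.0412, and its TM5441 value was -1.10, in the authors' deposited table. Cited2, a transcription co-regulator, fell from 281 to 84.2, by 1.74 with an adjusted p of 1.23e-05, and its TM5441 value was -0.57, in the authors' deposited table. Fam13a fell by 1.79 (adjusted p of 0.000424), the tight junction gene Cldn1 by 1.79 (0.00581) and the water channel gene Aqp8 by 1.72 (0.0191), beside TM5441 values of -0.72, -0.79 and -0.70, in the authors' deposited table. Arhgap24 and Rnf152 fell by 1.61 and 1.16, and had -1.16 and -1.04 for TM5441 in the authors' deposited table.

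Of the clock genes 4 rose under TM5614, and those that did had TM5441 values from -0.11 to 0.82 in the authors' deposited table. The hepatic clock is a loop in which BMAL1 (Arntl) and CLOCK drive the Per and Cry repressors and output factors such as DBP and TEF, which bind D-box elements. The 4 that rose were among 16 past the limit, none fell, against 2.33% and 2.26% of all genes, and the list's medians were 0.09 and, for TM5441 in the authors' deposited table, -0.11. Per3 had means of 24.1 in controls, 100.2 under TM5614, 12.1 under rapamycin, 85.9 under metformin and 126 under caloric restriction. It rose by 2.05 with an adjusted p of 0.00521, and its TM5441 value was 0.82, in the authors' deposited table. Dbp had 177 in controls, 644 under TM5614, 34.2 under rapamycin, 629.7 under metformin and 544 under caloric restriction. It rose by 1.86 with an adjusted p of 0.0265, and its TM5441 value was 0.49, in the authors' deposited table. Both genes were high under TM5614, metformin and caloric restriction and lowest under rapamycin. Tef rose from 549.9 to 1238, by 1.17 with an adjusted p of 0.0025, beside 0.51 for TM5441 in the authors' deposited table. Per2 rose from 61.5 to 139, by 1.17 with an adjusted p of 0.0389, while its TM5441 value in the authors' deposited table was -0.11.

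On the other arm of the loop, Arntl had means of 65.7 in controls, 15.7 under TM5614, 137 under rapamycin, 53.2 under metformin and 33.9 under caloric restriction. Its TM5614 value of -2.07 was not called, with an adjusted p of 0.104, and its TM5441 value was -0.25, in the authors' deposited table. Bhlhe40, a clock repressor, had -1.03 and, for TM5441 in the authors' deposited table, -1.01, and Nr1d1 (REV-ERB alpha) had 0.47 and 0.59. The hour of collection, which sets the level of these genes, is not given, and its part in the values was not tested. Of Per3, Dbp and Tef, Per3 was the gene whose upstream window held D-box matches. Per2, the other clock gene that rose, had no upstream window available to search. The 250 bases before its start in RefSeq (GRCm38.p6, chr4:151044666-151044915, minus strand) are shown with both matches in capitals.
Per3: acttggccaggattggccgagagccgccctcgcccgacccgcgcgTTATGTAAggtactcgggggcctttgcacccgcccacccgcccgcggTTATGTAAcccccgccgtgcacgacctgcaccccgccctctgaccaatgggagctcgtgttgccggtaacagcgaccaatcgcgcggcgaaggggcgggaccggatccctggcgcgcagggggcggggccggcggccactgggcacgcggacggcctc
The motif searched was TTANGTAA on both strands, held by 2.06% of the 32851 windows of that length. An E-box, CACGTG, held by 6.02%, has no match in the Per3 and Dbp windows and 1 match in each of the 2 Tef windows. Whether a factor binds at any of these matches was not measured.

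**Figure D4:**
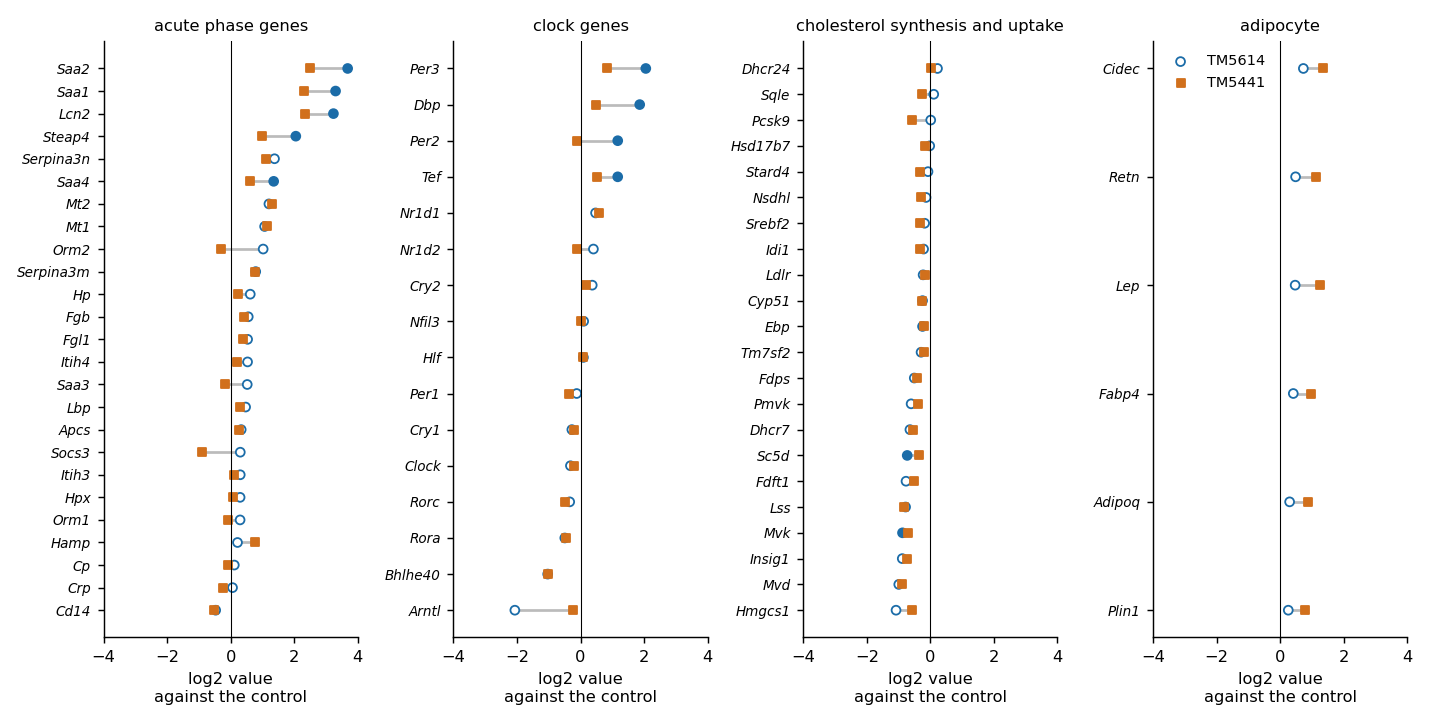
Log2 values against the control (horizontal axis) of the members past the mean limit in 4 gene lists, as far as reported here, for TM5614 (circles, filled where called) and TM5441 (squares). Acute phase and clock genes hold 5 and 4 filled circles to the right of 0, cholesterol genes hold 2 to the left, and all 6 adipocyte markers have higher values for TM5441 than for TM5614.

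Enzymes of amino acid breakdown and the urea cycle gave the most falls of any list. Of 30 members 7 fell and none rose, against 2.26% and 2.33% of all genes, while the medians were -0.11 and, for TM5441 in the authors' deposited table, -0.14. Agxt, the peroxisomal enzyme that removes glyoxylate, fell from 2844 to 1573, with 2048 under rapamycin, 2097 under metformin and 1818 under caloric restriction. Its value was -0.85 with an adjusted p of 1.22e-11, and -0.37 for TM5441, in the authors' deposited table. The control mean of Agxt was thus above that of every other group. The transsulfuration enzymes Cth and Cbs fell by 0.80 and 0.44 with adjusted p of 0.000472 and 0.000188, beside TM5441 values of -0.54 and -0.15, in the authors' deposited table. Hal, which starts histidine breakdown, fell by 0.78 (adjusted p of 0.000472), beside -0.48 for TM5441, in the authors' deposited table. Gnmt, Ftcd and Haao, which act on methyl groups, histidine products and tryptophan products, fell by 0.41, 0.37 and 0.29, beside -0.23, -0.21 and -0.22 for TM5441 in the authors' deposited table.

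Genes of cholesterol synthesis and uptake, which supply the liver with sterols, had medians below that of all genes. Of 23 members 2 fell under TM5614 and none rose, against 2.26% and 2.33% of all genes. Under TM5614 20 members had values below 0, and the median was -0.29. In the authors' deposited table the TM5441 values of 22 of the 23 were below 0, with a median of -0.36, whereas 51.8% of all genes were below 0. Mvk, an early enzyme of the mevalonate pathway, fell from 209 to 114, by 0.88 with an adjusted p of 0.0341, beside -0.70 for TM5441 in the authors' deposited table. Sc5d, a late sterol desaturase, fell from 5636 to 3402, by 0.73 with an adjusted p of 0.00322, beside -0.36 for TM5441 in the authors' deposited table. Hmgcs1, which makes the precursor of mevalonate, had -1.08 without a call under TM5614, and -0.56 for TM5441 in the authors' deposited table. With rapamycin and metformin as the reference, the list's TM5614 median was -0.41. In fatty acid and triglyceride synthesis 3 of 20 members fell: Acly by 0.66, Fasn by 0.82 and Elovl5 by 0.74, with adjusted p of 0.00932, 0.0216 and 0.0203 in the authors' deposited table; 2.26% of all genes fell. These 3 had -0.57, -0.21 and 0.17 for TM5441 in the authors' deposited table. Ppara, the fatty acid sensor of the liver, rose by 0.79 with an adjusted p of 0.0146, beside 0.39 for TM5441 in the authors' deposited table, and was the one call among 24 fatty acid oxidation genes.

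A few members of other lists were called, against 2.33% of all genes that rose and 2.26% that fell. While 1 call in a list of 27 is near that share, drug metabolism had 2 rises in 27 and the interferon response 2 in 15. In drug metabolism Por, the electron donor of cytochromes P450, and Cyp2a5 rose by 1.05 and 1.25, Ces1g fell by 0.31, and the other 24 of 27 were not called. Those 3 genes had 0.55, 0.59 and -0.23 for TM5441 in the authors' deposited table. Stat2 and Irf9, partners in the interferon-activated factor ISGF3, rose by 1.15 and 0.55 with adjusted p of 0.00323 and 0.0142, beside 0.72 and 0.42 for TM5441 in the authors' deposited table. The other 13 of 15 interferon response genes were not called, and the list's medians were 0.05 and, for TM5441 in the authors' deposited table, -0.10. The Irf9 means of 259.9 under rapamycin and 229 under metformin were near the 249.5 of TM5614, a value of 0.03 against those groups. Smad7, an inhibitor of TGF-beta signalling, fell from 149 to 70.0, by 1.09 with an adjusted p of 0.0123, while its TM5441 value in the authors' deposited table was -0.09. Stat5b, which carries the growth hormone signal, fell by 0.88 with an adjusted p of 0.000755, beside -0.30 for TM5441 in the authors' deposited table. Nampt, which makes a precursor of NAD, rose by 0.63 with an adjusted p of 0.0122, beside 0.28 for TM5441 in the authors' deposited table. Hsd3b7, an enzyme of bile acid synthesis, fell by 0.82 with an adjusted p of 0.00368, beside -0.42 for TM5441 in the authors' deposited table.

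Srf, a transcription factor of immediate early genes, fell from 242 to 116, by 1.05 with an adjusted p of 0.0119, beside -0.86 for TM5441 in the authors' deposited table. Its means were 133 under rapamycin and 113 under metformin, so that against those groups the TM5614 value was -0.08. Srf was the one fall among 18 immediate early genes, against 2.26% of all genes, and the other 17 were not called or had no adjusted p. The list's medians were -0.06 and, for TM5441 in the authors' deposited table, -0.42. Egr1 had means of 338 in controls and 1050.1 under TM5614, a value of 1.64 that was not called (adjusted p of 0.251), and -0.15 for TM5441, in the authors' deposited table. Atf3 and Nr4a1 had -3.13 and -2.79 without a call, and -2.06 and -2.52 for TM5441 in the authors' deposited table. Xbp1, a regulator of the unfolded protein response, rose by 0.90 with an adjusted p of 0.0441, beside 0.35 for TM5441 in the authors' deposited table. It was the one call among 23 unfolded protein and heat shock genes, while 2.33% of all genes rose. That list had medians of 0.21 for TM5614, which became -0.11 with rapamycin and metformin as the reference, and 0.23 for TM5441 in the authors' deposited table. Creld2 and the chaperone gene Hspa5 had 1.05 and 0.55 without a call, and 1.21 and 0.96 for TM5441 in the authors' deposited table.

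Some of the highest TM5441 values in the authors' deposited table belonged to genes not called under TM5614. Hmox1, heme oxygenase 1, had means of 178 in controls, 259 under TM5614, 952 under rapamycin, 180.2 under metformin and 2514 under caloric restriction. Its TM5614 value was 0.54 with an adjusted p of 0.833, and its TM5441 value was 2.30 (4.92-fold), in the authors' deposited table. The other 16 members of the NRF2 antioxidant list, none of them called, were lower for TM5441 than Hmox1, with a list median of 0.02 in the authors' deposited table. Cdkn1a, the cell cycle inhibitor p21, had means of 328 in controls, 261 under TM5614, 1276 under rapamycin, 171 under metformin and 819 under caloric restriction. It had -0.33 with an adjusted p of 0.836 under TM5614, and 1.32 for TM5441, in the authors' deposited table. None of the 16 senescence and p53 genes was called (15 had an adjusted p), and their medians were -0.11 and, for TM5441 in the authors' deposited table, -0.08. Gadd45a and Gadd45b, of the same list, had -0.30 and -1.65 under TM5614, and -1.09 and -0.90 for TM5441 in the authors' deposited table.

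The highest TM5441 values of all were 3.63 for Lars2, the mitochondrial leucyl-tRNA synthetase gene, and 3.33 for Rn45s, the ribosomal RNA precursor, in the authors' deposited table. Under TM5614 they had -0.53 and -0.78, with adjusted p of 0.827 and 0.732 in the authors' deposited table. Rn45s had a mean of 17687 in controls, 10283 under TM5614, 44095 under rapamycin, 366479 under metformin and 39519 under caloric restriction. Lars2 had 911, 629, 2368, 21729.7 and 2559 in the same order. For both genes metformin was far above the other groups, and TM5614 was lowest. Whether the Lars2 counts come from its messenger RNA or follow ribosomal RNA was not tested. Rn45s took 0.227% of the summed means in controls, 0.132% under TM5614 and 4.4% under metformin. Precursor RNA is not polyadenylated and its share in such libraries moves with RNA selection, and the part of RNA quality in these values was not tested.

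Adipocyte markers had TM5441 values above the middle 90% of genes in the authors' deposited table. All 6 listed genes passed the mean limit, none was called under TM5614, and their medians were 0.44 for TM5614 and 1.04 for TM5441 in the authors' deposited table. The TM5614 values ran from 0.26 to 0.73 and those of TM5441 in the authors' deposited table from 0.78 to 1.36. The highest pair was Cidec, a lipid droplet protein gene, with 0.73 and 1.36 in the authors' deposited table, and Lep, the fat hormone leptin, had 0.47 and 1.24. The summed level of the 6 was 1138 normalized counts in controls, 1576 under TM5614, 1341 under rapamycin, 1635 under metformin and 1861 under caloric restriction. No marker was at 0 in any group. Plin4, which also coats lipid droplets, rose under TM5614 from 322 to 688, by 1.09 with an adjusted p of 0.0134, and its TM5441 value was 1.53, in the authors' deposited table. The part of fat cells in the Plin4 values was not tested.

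Of the 8 lowest TM5441 values in the authors' deposited table, 3 came from genes low in every group but 1. Fosb had -3.04 and Cyp2b9 -2.99 in the authors' deposited table, and both passed the mean limit only through caloric restriction, where their means were 657 and 724 against 25.04 and 13.01 in controls. Such genes, with control and TM5614 means both under 50, numbered 43 of the 8563. Marco, a scavenger receptor of Kupffer cells, had 261 in controls, 44.5 under TM5614, 43.6 under rapamycin, 27.3 under metformin and 32.0 under caloric restriction. It had no adjusted p, and its values were -2.56 and, for TM5441 in the authors' deposited table, -2.89. The 9 Kupffer cell and macrophage markers had medians of -0.34 and, for TM5441 in the authors' deposited table, -0.31, and none was called. The summed level of the 12 listed markers (11 in the table), Marco included, was 2305 in controls and 1731 under TM5614. It was 1812 under rapamycin, 1654 under metformin and 1172 under caloric restriction, so that the control was above every other group. Against the mean of rapamycin and metformin the TM5614 median of this list was -0.02. In bulk tissue, fewer cells of a type and less RNA per cell cannot be told apart. Mup16, 1 of many near-identical urinary protein genes, was also low in the compared groups, with means of 43.5 in controls and 30.1 under TM5614. It passed the mean limit through rapamycin (216) and metformin (375). Mup16 had no adjusted p, and its values were -0.53 and, for TM5441 in the authors' deposited table, -2.13.

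Genes with the widest gaps between the numbers, ranked without a test, repeat several of those above. TM5441 of the authors' deposited table exceeded TM5614 most, among the genes reported here, for Lars2, Rn45s, Arntl, Hmox1, Cdkn1a, Bcl6 and Fosb. Bcl6, a transcriptional repressor, had -1.62 without a call and, for TM5441 in the authors' deposited table, -0.04. TM5614 exceeded TM5441 of the authors' deposited table most for Egr1, Mup16, C4a, Tmtc2, Dbp, Inhbe, Orm2 and Per2. Tmtc2 rose by 0.98 under TM5614 with an adjusted p of 0.0102 and had -0.41 for TM5441 in the authors' deposited table. Inhbe, a liver-secreted activin subunit, had 1.54 without a call and, for TM5441 in the authors' deposited table, 0.18.

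The 7 hepatocyte markers, among them Alb with 606485 in controls and 637023 under TM5614, had medians of -0.08 and, for TM5441 in the authors' deposited table, -0.08, and none was called. None of 72 cytosolic ribosomal protein genes was called either, with medians of -0.13 and, for TM5441 in the authors' deposited table, -0.04. Among 38 complex I and ATP synthase subunits 1 fell, against 2.26% of all genes. It was Ndufs7, lower by 0.48 with an adjusted p of 0.0201, beside -0.22 for TM5441 in the authors' deposited table. Medians of that list were -0.13 and, for TM5441 in the authors' deposited table, -0.01. Values were below 0 for 35 of the 38 under TM5614, and for 20 of them for TM5441 in the authors' deposited table. With rapamycin and metformin as the reference, the list's TM5614 median was -0.24. Markers of sinusoidal endothelium (10 genes) had -0.09 and, for TM5441 in the authors' deposited table, -0.25, and those of stellate cells and fibroblasts (10 genes) -0.11 and -0.07, with no call in either. None of 18 male-biased liver genes was called, and their medians were 0.10 and, for TM5441 in the authors' deposited table, -0.18. Autophagy and lysosome genes had 1 call in 23, a fall, against 2.26% of all genes. The gene was Gabarapl1, which fell by 0.41 with an adjusted p of 0.0294 and had -0.03 for TM5441, in the authors' deposited table. Its means of 2470.3 under rapamycin and 2625 under metformin were near the 2609.8 of TM5614, so that against those groups its value was 0.03.

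**Figure D5:**
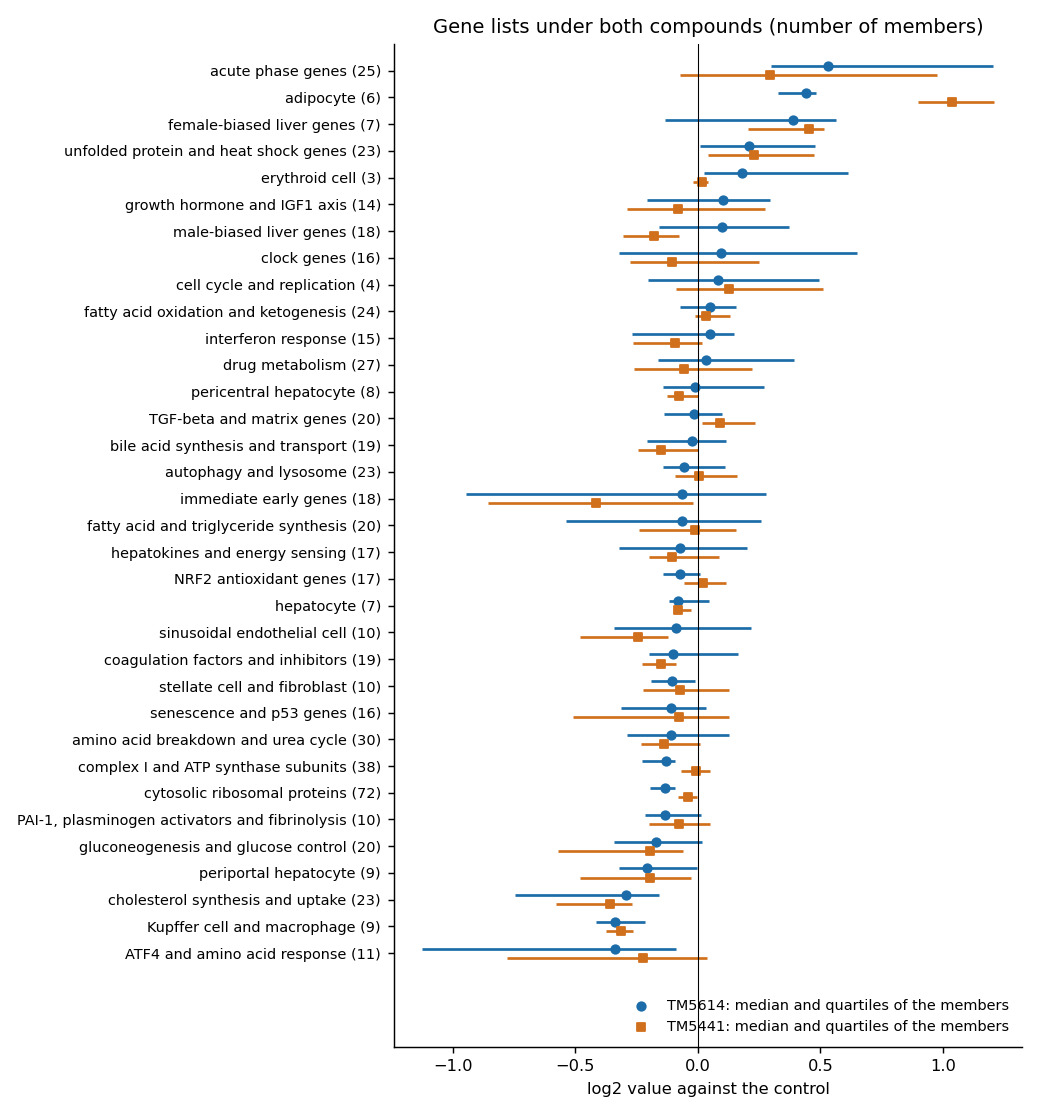
Median (points) and quartiles (lines) of the log2 values against the control (horizontal axis) over the members of each list past the mean limit (vertical axis, number of members in brackets), for TM5614 (circles) and TM5441 (squares). For TM5614 acute phase genes and adipocyte markers lie farthest to the right, at medians of 0.53 and 0.44; for TM5441 adipocyte markers (1.04) and the 7 female-biased liver genes (0.45) do, and most other lists lie within 0.3 of 0.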

How the data were processed

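Liver RNA of 18 libraries was sequenced by the submitters. Reads were aligned with HISAT2 2.0.5 to mm10, according to the submitters' processing notes; how genes were counted, with which strand setting and annotation, is not given in the sources used here. Values were read from 1 table of 12019 genes, named by the authors for DESeq2. It holds, per the file headers, 1 normalized signal per group, taken as a mean of normalized counts, and deposited adjusted p-values and deposited log2 fold changes against the control. For TM5441 it has only a log2 fold change. Log2 ratios of the TM5614 and control means were computed without a pseudocount and differed from the deposited log2 fold change by at most 0.04. Where the authors gave no adjusted p (13 of the 8563 genes), none was filled in.

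Genes were kept where the mean of the 5 group columns reached 50. A further deposited table has 18 columns of single libraries whose names match no label, and none was used, so no SD or test over libraries was computed, and depth per library is unknown. The p-values are the authors' own. The libraries behind the control mean are not stated, so the spread that these p-values rest on is not known. The compounds and the gene lists were chosen with earlier results of these data known. Named genes are the 8 largest called rises and falls under TM5614, the 8 highest and lowest TM5441 values, the 8 widest gaps each way, up to 4 members of each list by adjusted p and 2 by TM5441 value, all fibrinolysis genes, and called genes past 1 log2 unit for both; Mt1, Mt2, Serpina3n, Hmgcs1, Alb, Nr1d1 and other list members outside this rule were named after their values were seen. Some genes under this rule are not reported here, though list counts and medians include them. Coordinates are those of GENCODE vM21, in which 10901 symbols matched. Promoter windows of 250 bases are from RefSeq (GRCm38.p6). Scripts ran in Python 3.11.15 with pandas 2.3.3, numpy 2.4.6 and matplotlib 3.10.9, and the counting was tested on simulated data. Alternatives were other mean limits, thresholds, a pseudocount of 1, centring and a reference without the control.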

Additional observations from a re-analysis of the deposited data

How the results depend on the processing

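Counts moved with the limits set. Genes called higher under TM5614 numbered 131 at a mean of at least 200, 74 at an adjusted p under 0.01 and 350 at one under 0.1; those called lower numbered 71 and 343 at these p. Past the size threshold, TM5614 had 144 higher and 151 lower genes at a mean of at least 10, 45 and 39 at 200, 341 and 278 at a 1.5-fold change, and 12 and 11 at 2 log2 units. The TM5441 counts under the same settings were 123 and 79, 32 and 12, 198 and 157, and 6 and 7, in the authors' deposited table. With the mean of rapamycin and metformin as the reference, 18 genes were past 1 log2 unit higher under TM5614. A control mean of at least 50, chosen after seeing the data, moved no count by more than 1.5 times. Of 612 genes of the lists and the naming rule, 58 of them called, all stayed within 0.1 log2 unit with the deposited log2 fold change and with centring, and 609 with a pseudocount of 1. With rapamycin and metformin as the reference 48 of the 58 called genes moved by more and 8 did not. The other 2 changed sign but lay within 0.1 log2 unit of 0, Lcn2 at -0.0115 and Gabarapl1 at 0.0347. The cause was not tested. For pancreatic markers at a mean of at least 10 the TM5614 median has no finite value. No paired analysis was possible because no column of single libraries matched a label, and leaving out libraries was not possible for the same reason. Depth per library is unknown, so no limit of detection is given, and all TM5614 calls rest on 3 libraries.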

Other observations

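Several genes of the exocrine pancreas had a level above 0 in the control mean only. Amy2a5 (amylase) had a control mean of 183 normalized counts, Ctrb1 (chymotrypsinogen) 75.6, Pnlip (lipase) 48.8 and Cpa1 (carboxypeptidase) 36.2, and all 4 were listed at 0 under TM5614, rapamycin, metformin and caloric restriction. Their TM5441 log2 fold changes in the authors' deposited table were -23.83, -22.72, -22.15 and -21.72, beside -23.92, -22.79, -22.12 and -21.78 for TM5614. Values of this size come from a mean listed at 0 and measure no fold. The summed level of 12 listed pancreatic acinar markers (11 in the table) was 675 in controls and 75.6 under TM5614.

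A few other genes below the mean limit were listed at 0 in some groups. Amd1, an enzyme of polyamine synthesis, was listed at 0 in the control, rapamycin, metformin and caloric restriction means and at 103 under TM5614, and had log2 fold changes of 21.84 for TM5614 and 22.07 for TM5441 in the authors' deposited table. LOC100048884 had means of 29.1 in controls, 47.6 under TM5614 and 21.8 under rapamycin, was listed at 0 under metformin, and had 0.71 for TM5614 and -21.51 for TM5441 in the authors' deposited table. Mup17, with a control mean of 64.2, had -1.27 for TM5614 and -6.08 for TM5441 in the authors' deposited table. Atp6v0c-ps2, a pseudogene listed at 0 under TM5614, had -6.13 for TM5614 and 0.69 for TM5441 in the authors' deposited table. These genes were chosen after their values were seen, and no test bears on them.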
